A study of Mus musculus with 2 samples.

Results

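Voltage-gated sodium channels were examined in the cerebral cortex of young mice through 7 subunit genes. They comprise 4 genes of the pore-forming alpha subunits, Scn1a (Nav1.1), Scn2a (Nav1.2), Scn3a (Nav1.3) and Scn8a (Nav1.6), and 3 genes of the auxiliary beta subunits, Scn2b, Scn3b and Scn4b. The genes were chosen by symbol, with earlier results of these data known, and all 7 were found among the 55536 genes of the deposited tables. All 7 reached 1 TPM (transcripts per 1000000, a level corrected for transcript length) in both libraries, and all were among the 18887 genes with enough counts to be tested. The set is not the whole family, so sums over the beta genes cover these 3 genes and no others.

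The RNA came from the left cerebral cortex of female B6CASTF1/J mice, F1 hybrids of C57BL/6J with CAST/EiJ, at 14 days of age, with no treatment or altered gene named in the labels. Each of the 2 libraries, called biological replicates 1 and 2, was made from 300 ng of total RNA depleted of ribosomal RNA. Both carry the same donor entry and a description that names 3 females. The tissue labels do not match each other: 3 females are named for replicate 1, while that of replicate 2 says female in the singular without a count. The number of mice in each library is therefore not known, and the spread between them may be technical. Gene counts summed to 33.4M in replicate 1 and 32.0M in replicate 2. There is 1 group and no second condition, so the data give levels, relations between genes within a library, and the difference between these 2 libraries. All 5 markers of excitatory neurons (Slc17a7, Camk2a, Neurod2, Neurod6, Tbr1), all 6 of inhibitory neurons and all 6 of astrocytes reached 1 TPM in both libraries.

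Sodium channels open when the membrane is depolarised and carry the inward current that starts and propagates the action potential. An alpha subunit forms the pore and the voltage sensors, and beta subunits with a single membrane span alter gating, surface density and cell adhesion. In cortical tissue Nav1.2 and Nav1.6 are the main channels of excitatory neurons, with Nav1.2 early and Nav1.6 later at the axon initial segment and nodes of Ranvier. Nav1.1 is known for its role in fast-spiking interneurons, and Nav1.3 is the channel of the embryonic brain. Several alpha genes hold a pair of alternative exons for part of the first domain, a neonatal copy upstream and an adult copy downstream, of which a transcript carries 1.

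The downstream copy of this exon is shown for Scn2a, Scn3a and Scn8a, because the splice choices reported for these genes turn on the pair. In each gene both copies are 92 nucleotides long and coding, and they lie close to each other on the chromosome. Sequences are read from mm10 in the direction of the gene, with capitals at the positions where the 3 genes are not the same. The downstream copy lies at chr2:65682690-65682781 on the plus strand in Scn2a, at chr2:65525695-65525786 on the minus strand in Scn3a and at chr15:100959603-100959694 on the plus strand in Scn8a.
Scn2a downstream copy: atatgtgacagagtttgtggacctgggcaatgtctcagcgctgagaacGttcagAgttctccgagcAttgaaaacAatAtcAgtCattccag
Scn3a downstream copy: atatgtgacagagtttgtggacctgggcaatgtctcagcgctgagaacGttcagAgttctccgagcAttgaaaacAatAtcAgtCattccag
Scn8a downstream copy: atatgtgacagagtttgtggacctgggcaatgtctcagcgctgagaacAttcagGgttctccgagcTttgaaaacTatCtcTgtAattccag
The downstream copies of Scn2a and Scn3a were identical at all 92 bases, and each differed from that of Scn8a at 7 (92.4% identity). A read that lies within this exon therefore cannot be assigned to Scn2a or Scn3a by its sequence.

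Reads from stretches shared by several alpha genes can be assigned to any of them. The longest identical stretch between annotated transcripts was 188 nucleotides for Scn1a and Scn2a, 143 for Scn2a and Scn3a and 143 for Scn1a and Scn3a, against 55 for Scn3a and Scn8a, 50 for Scn2a and Scn8a and 37 for Scn1a and Scn8a. Of all different 50-nucleotide words in the transcripts of a gene, 3.63% of those of Scn1a, 5.06% of those of Scn2a and 5.13% of those of Scn3a also stood in another of the 7 genes. For Scn8a the share was 0.037%, and the 3 beta genes shared none. The assignment of such reads was made by the authors, so the values of Scn1a, Scn2a and Scn3a carry an uncertainty that sharing among these 7 genes does not give the beta genes.

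Of the alpha genes, 3 stood in a row on mouse chromosome 2, and the beta genes all lay on chromosome 9. Scn3a (chr2:65457118-65567627, minus strand) was followed by Scn2a (chr2:65620771-65767447, plus strand) after 53.1 kb, and Scn1a (chr2:66270778-66440840, minus strand) followed after a further 503 kb. Scn8a lay at chr15:100869858-101045938 on the plus strand. Scn3b (chr9:40269217-40291618), Scn2b (chr9:45117782-45130070) and Scn4b (chr9:45138395-45154152) were all on the plus strand, and 8.32 kb separated Scn2b from Scn4b. Genes annotated on the opposite strand overlapped 4 of the 7, namely Gm13630 at Scn1a, Gm13595 at Scn3a, Gm10684 at Scn2b and Gm47266 at Scn3b. None of these exceeded 0.18 TPM in the gene tables.

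Scn2a was the most abundant of the alpha genes and of all 7. Its level in the gene tables was 155 TPM in replicate 1 and 162 TPM in replicate 2, from 22369 and 21939 counts. Scn8a followed with 96.5 and 96.0 TPM, Scn1a with 39.1 TPM in both (39.14 and 39.05), and Scn3a with 16.4 and 21.6 TPM. For scale, the 12959 protein-coding genes detected in both libraries had a median of 15.7 TPM in replicate 1 and 16.6 TPM in replicate 2. Scn2a thus stood above 95.6% and 95.9% of them and Scn8a above 92.1% and 91.9%, while Scn3a, the embryonic channel, stood close to the median, above 51.2% and 58.4%.

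Among the beta genes, Scn4b differed far more between the libraries than Scn2b and Scn3b. Scn2b, whose product is covalently linked to the alpha subunit, was at 88.4 and 82.4 TPM from 8354 and 7470 counts. Scn3b, whose product binds without such a bond, was at 54.4 and 58.7 TPM from 3746 and 4007 counts. Scn4b, another covalently linked subunit, known for its role in resurgent current and for its high level in striatal and Purkinje neurons, measured 23.1 TPM in replicate 1 but 7.66 TPM in replicate 2, from 2423 and 769 counts. It stood above 62.0% of detected coding genes in replicate 1 and above 28.5% in replicate 2.

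**Figure D1:**
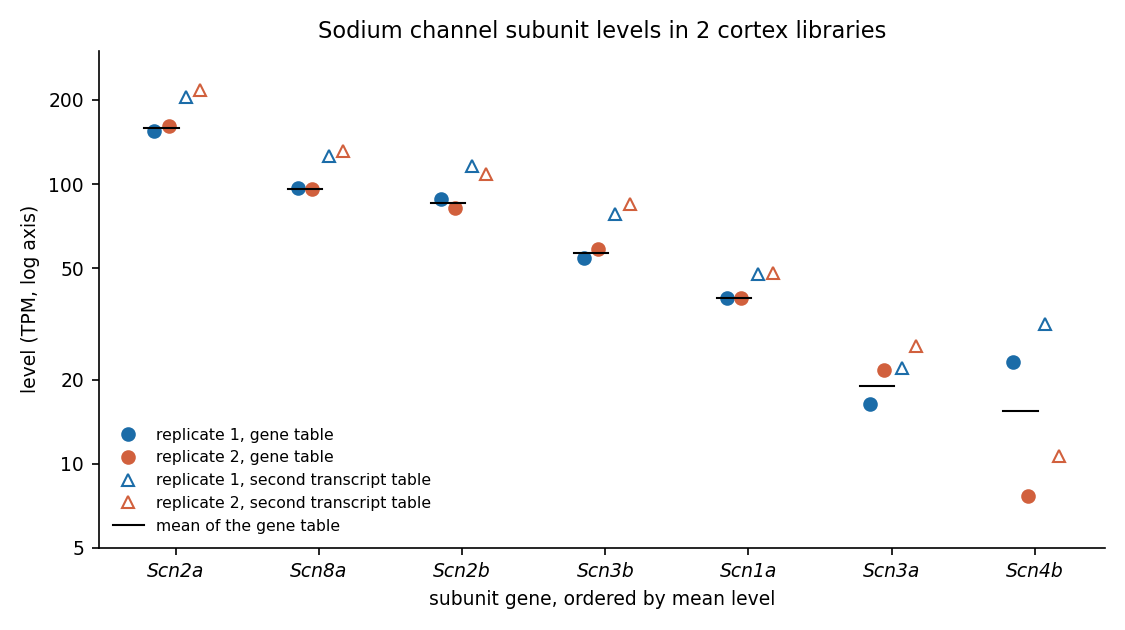
Level of each subunit gene in TPM on a log axis, with 1 symbol per library: filled circles are the gene tables, open triangles the second transcript tables summed per gene, and the line is the mean of the 2 filled circles. Scn2a is highest at 155 and 162 TPM, and only Scn3a and Scn4b have gene-table values whose ranges overlap.

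In order of mean level the genes were Scn2a (158 TPM ± 4.82, SD, n = 2), Scn8a (96.2 ± 0.403), Scn2b (85.4 ± 4.28), Scn3b (56.5 ± 3.08), Scn1a (39.1 ± 0.0636), Scn3a (19.0 ± 3.68) and Scn4b (15.4 ± 10.9). The values of neighbours in this order did not overlap between the genes, with 1 exception: Scn4b was above Scn3a in replicate 1 and below it in replicate 2. With 2 libraries an exact paired test cannot give a p below 0.5, so the order is a description. The second transcript tables, which the authors made from the reads by another route, gave levels 1.23-fold (Scn1a) to 1.45-fold (Scn3b) higher and the same order of means.

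Shares within the family were close in the 2 libraries for the more abundant alpha genes. Scn2a made up 50.5% of the summed alpha TPM in replicate 1 and 50.8% in replicate 2, Scn8a 31.4% and 30.1%, Scn1a 12.7% and 12.3%, and Scn3a 5.34% and 6.79%. Of the TPM summed over the 3 beta genes, Scn2b held 53.3% and 55.4%, Scn3b 32.8% and 39.5%, and Scn4b 13.9% and 5.15%. The alpha sum was 307 and 318 TPM and the sum of the 3 beta genes 166 and 149 TPM, a log2 ratio of 0.89 in replicate 1 and 1.10 in replicate 2.

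The closest pair of neighbours was Scn8a over Scn2b, with a log2 ratio of 0.13 in replicate 1 and 0.22 in replicate 2. Scn2a over Scn8a, the 2 channels of the excitatory axon, was 0.68 and 0.75, that is 1.61-fold and 1.69-fold. Scn8a over Scn1a was 1.30 and 1.29, and Scn3b over Scn1a 0.47 and 0.59. Scn1a over Scn3a was 1.25 and 0.85. These ratios kept their direction in both libraries and both kinds of table. Ratios with Scn4b did not keep their size: Scn2b over Scn4b was 1.93 and 3.41 and Scn3b over Scn4b 1.23 and 2.92, while Scn3a over Scn4b was -0.49 in replicate 1 and 1.48 in replicate 2.

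Part of the higher TPM of Scn3a in replicate 2 lay in a transcript fragment. The effective length that the authors' table gave Scn3a was 7807 nucleotides in replicate 1 and 7003 in replicate 2, because the TPM of the 365-nucleotide transcript Scn3a-203 was 0.86 and 3.27, from 4.93 and 17.9 expected counts. Without Scn3a-203 the level of Scn3a was 15.5 and 18.3 TPM, a ratio of 1.18, compared with 1.32 with it.

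The 7 genes have between 1 annotated transcript (Scn4b) and 20 (Scn8a), and the splice forms were read from the shares of transcripts in the TPM of their gene. Scn2a-201, a full-length coding transcript with the upstream exon copy, was the highest transcript of Scn2a in both libraries and both transcript tables, with 53.6% and 48.0% in the first and 55.5% and 55.2% in the second. Scn3a-202, with the downstream copy, held 84.0% and 72.8% in the first tables and 91.9% and 89.3% in the second. Scn2b-202 held 78.0% and 79.5% in the first and 100% in both second tables, where Scn2b-201 was listed at 0. Scn4b had Scn4b-201 alone.

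For the other genes the highest transcript depended on the table. It was Scn1a-203 (35.9% and 34.9%) in the first tables and Scn1a-204 (42.7% and 43.0%) in the second, which listed Scn1a-201 at 1.15% and 0.44% where the first gave 32.0% and 29.3%. For Scn8a it was Scn8a-205 (47.4% and 47.6%) in the first and Scn8a-203 (31.7% and 22.4%) in the second. For Scn3b it was Scn3b-203 (27.9%) in replicate 1 and Scn3b-202 (27.4%) in replicate 2 of the first tables, and Scn3b-201 (43.4% and 45.1%) in the second. Within a table, the share of a transcript moved between libraries by at most 11.2 percentage points (Scn3a, first tables). Between tables it moved by as much as 35.0 points (Scn1a).

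**Figure D2:**
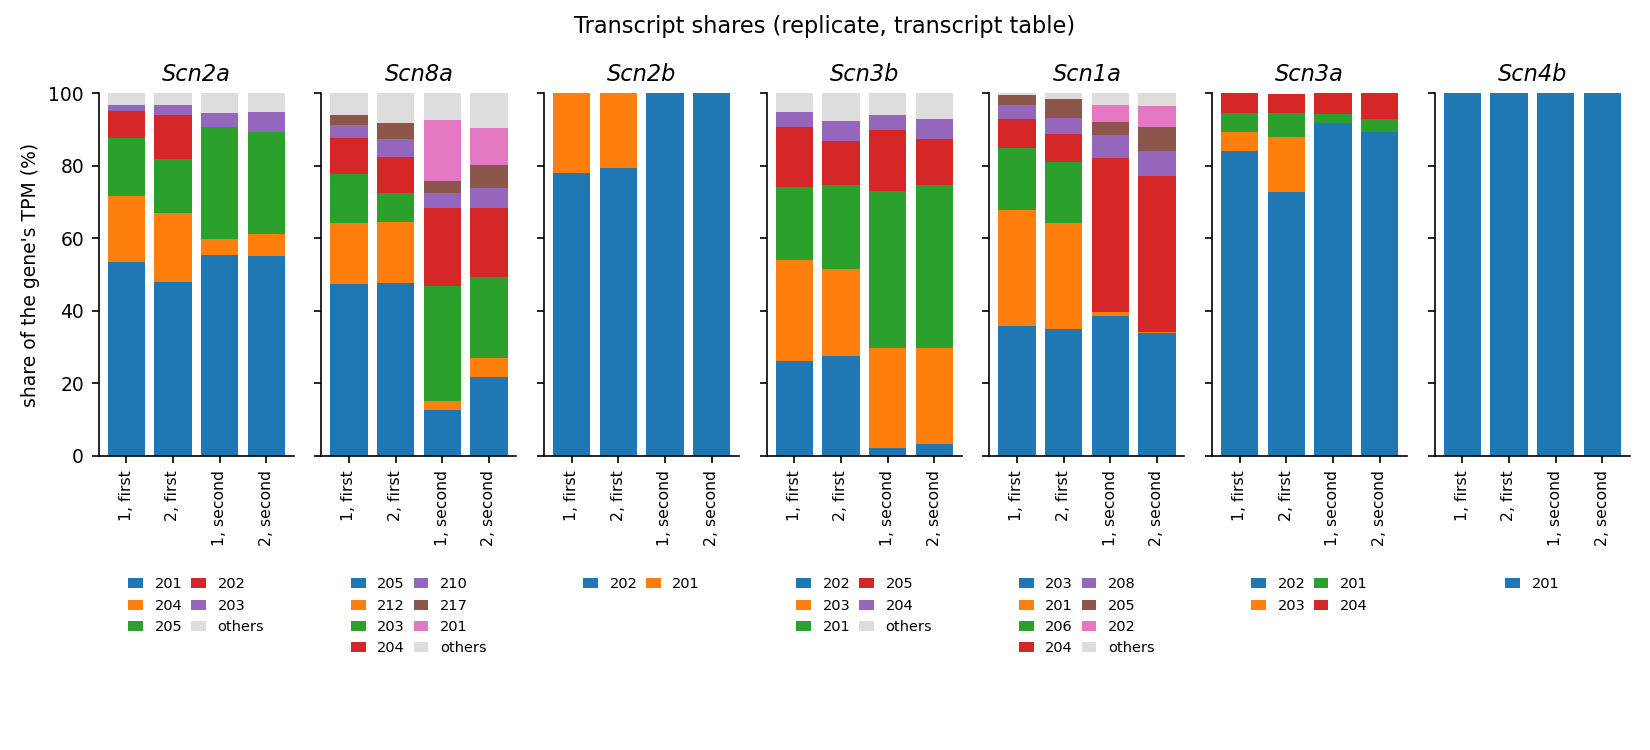
Share of each gene's TPM by transcript, in percent, with 1 bar per library and transcript table and 1 colour per transcript number within a gene. Scn1a, Scn8a and Scn3b change their leading transcript between the first and the second table, and Scn3b also between the libraries of the first.

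In Scn2a, transcripts annotated with the upstream, neonatal copy of the exon pair held most of the TPM. In Scn8a and Scn3a, those with the downstream, adult copy did. Among Scn2a transcripts that carry either copy, the upstream copy had 64.0% of the TPM in replicate 1 and 63.8% in replicate 2, and 61.2% and 61.8% in the second tables. The levels behind these shares were 94.3 and 97.0 TPM with the upstream copy, from Scn2a-201 and Scn2a-202, and 53.1 and 55.1 TPM with the downstream copy, from Scn2a-204 and Scn2a-205. By expected counts the upstream share was 80.3% and 80.6%, since Scn2a-204 (1810 nucleotides) and Scn2a-205 (6348) are shorter than Scn2a-201 (8935). Both libraries put the transcripts with the upstream copy above those with the downstream copy by each measure.

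In Scn8a the upstream copy had 22.7% and 26.0% of the TPM, and 25.8% and 26.2% in the second tables. By counts it was 6.26% and 7.14%, because in the first tables much of it lay in the 2565-nucleotide transcript Scn8a-212. In Scn3a the annotation gives the upstream copy to Scn3a-203 alone, the fragment described above. Its share was 5.54% in replicate 1 and 16.0% in replicate 2 of the first tables, and it was listed at 0 in both second tables, so that the use of this copy in Scn3a is poorly measured. The annotation holds no such pair in Scn1a. In all 3 genes the transcripts with either copy also differ in their starts, ends or lengths, so the shares measure whole transcripts and not the exon by itself.

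Scn1a and Scn8a also use alternative splice sites at the end of an exon for the loop between the first domains. For Scn8a the bases that the longer form adds are shown to place the choice. In Scn1a the exon ends after 348 or 381 nucleotides, or after 297 in Scn1a-202 alone. In Scn8a it ends after 357 or 387, and the longer form adds chr15:100984046-100984075 (plus strand), which is coding.
Scn8a added segment: gtgaaaatagataaggcagctacagacagt
For Scn1a the shares were taken over the forms of 348 and 381 nucleotides only. The shorter of these had 52.7% and 51.4% of the TPM in the first tables and 53.2% and 56.3% in the second. The 2 transcripts that carry it, Scn1a-201 and Scn1a-204, nevertheless traded places between the tables. In Scn8a the shorter form prevailed, with 88.6% and 88.1% in the first and 74.4% and 75.9% in the second tables. The second tables also gave Scn1a-202, with an exon of 297 nucleotides, 4.74% and 5.88% of the gene, where the first listed it at 0.

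Scn1a has an exon of 64 nucleotides (chr2:66293832-66293895, minus strand) that is found in no coding transcript. It belongs to Scn1a-208, which the annotation marks for nonsense-mediated decay, the pathway that removes transcripts with an early stop codon. Exons of this kind lower the amount of productive message. The sequence was chosen among internal exons that overlap no exon of a coding transcript. Of these the 64-nucleotide exon is the lone one whose transcript reached 5% of its gene. Scn1a-208 did so in the second tables (6.29% and 6.78%) and not in the first (4.11% and 4.51%).
Scn1a exon of 64 nucleotides: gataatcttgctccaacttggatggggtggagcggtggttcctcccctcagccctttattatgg
Against the transcripts that skip the exon, Scn1a-208 had 5.11% and 5.77% of the TPM in the first tables and 6.53% and 7.27% in the second. Its level was 1.61 and 1.76 TPM in the first tables. The 2 transcripts of this kind in Scn2a, Scn2a-207 and Scn2a-208, reached no more than 0.86% and 2.45% of their gene in any table.

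**Figure D3:**
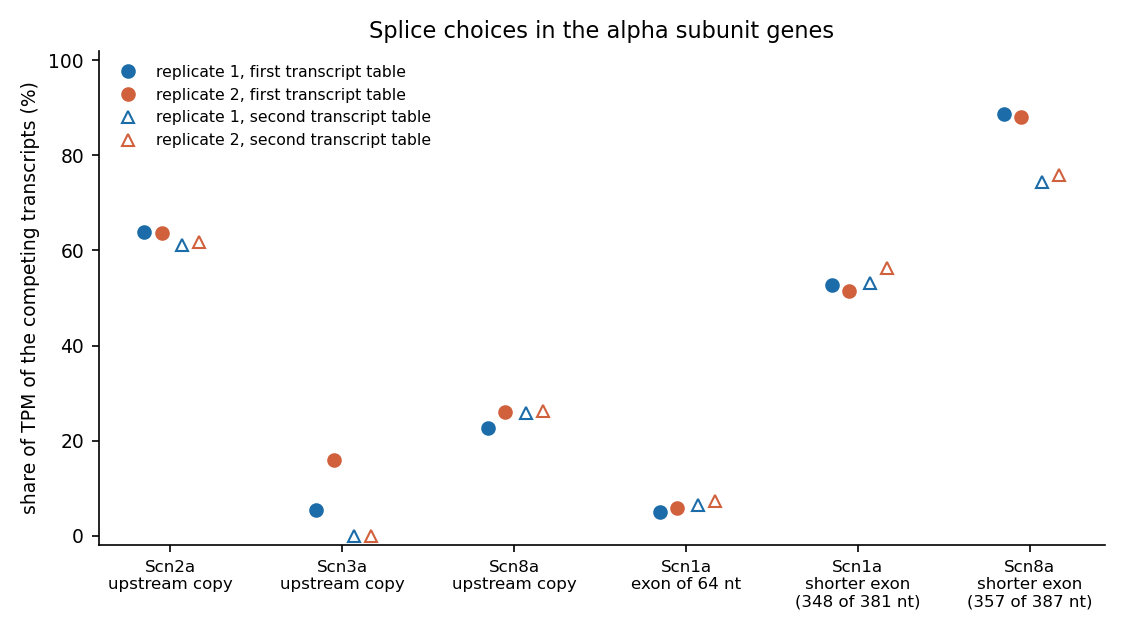
Share of the competing transcripts' TPM, in percent, with 1 symbol per library and table. Shown are the upstream exon copy (Scn2a, Scn3a, Scn8a), the 64-nucleotide exon (Scn1a) and the shorter exon form (Scn1a, 348 against 381 nucleotides, and Scn8a). For the upstream copy Scn2a stands between 61.2% and 64.0% and Scn8a between 22.7% and 26.2%. The leading Scn8a transcript with this copy differs between the first and the second tables.

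The 2 libraries were set against each other gene by gene in an exact binomial test (two-sided, on rounded counts), with Benjamini-Hochberg adjustment over all 18887 tested genes and a threshold of 0.05. The test takes counting error alone and compares these 2 libraries, not mice. It called 20.3% of all tested genes, 11.4% of them lower and 8.88% higher in replicate 2. Of the 7 subunit genes it called 6, with 4 lower and 2 higher. Over all tested genes the split was 1678 higher and 2152 lower. With libraries scaled by total counts it was 2733 and 1145, and with scaling by spike-ins 2570 and 1229. Under both of these scalings 5 subunit genes were called, 2 higher and 3 lower. The subunit genes had 769 to 22369 counts, at which depth the test called differences as small as 1.07-fold (Scn3b).

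Scn4b was lower in replicate 2 by 3.10-fold, a log2 ratio of -1.63 between scaled counts, with a counting SE of 0.06 (95% interval -1.75 to -1.52, exact binomial adjusted p = 3.32e-194). Only 0.275% of tested genes were called lower by 2-fold or more. Of the 18887 tested genes 15 had a lower ratio, and 2 of the 9625 with a mean of at least 10 CPM (counts per 1000000), the snRNA gene Gm24497 and Dennd3, named after their values were seen. With edgeR and an assumed dispersion of 0.01, which allows for spread beyond counting error and called 0.964% of tested genes, Scn4b was the lone subunit gene called (adjusted p = 3.3e-11). The second tables gave -1.64. Scn2b, its neighbour on the chromosome, differed by -0.16 ± 0.02 (adjusted p = 1.01e-10).

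In TMM-scaled counts the other subunit genes differed by 1.13-fold or less. Scn8a was lower in replicate 2 by a log2 ratio of -0.12 ± 0.02 (adjusted p = 8.6e-13) and Scn1a by -0.11 ± 0.03 (adjusted p = 0.000725), of which Scn1a was not called with libraries scaled by total counts or by spike-ins (adjusted p = 0.184 and 0.125). Scn3a was higher by 0.18 ± 0.04 (adjusted p = 3.02e-05), or by 0.24 and 0.23 with scaling by total counts and by spike-ins, and Scn3b by 0.10 ± 0.03 (adjusted p = 0.0179), of which Scn3b was not called in the second tables (adjusted p = 0.136). Scn2a was not called, at -0.03 ± 0.01 with an adjusted p of 0.164 and a 95% counting interval of -0.05 to -0.0001, and its sign was positive under scaling by total counts or spike-ins (0.03 and 0.02). In the second tables it was called lower by scaled counts, at -0.04 (exact binomial adjusted p = 0.00775). Summed TPM in those tables was instead higher in replicate 2 for Scn2a (204 and 217), Scn8a (126 and 131) and Scn1a (47.8 and 48.2). For the other subunit genes TPM there moved in the same direction as the scaled counts. The authors' own intervals around the posterior mean TPM, whose level is not stated, overlapped between the libraries for Scn2a, Scn8a, Scn3b and Scn1a. They did not overlap for Scn2b (83.7 to 87.6 against 77.8 to 81.6), Scn3a (15.1 to 17.4 against 19.3 to 23.1) and Scn4b (21.5 to 23.3 against 6.90 to 7.95).

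**Figure D4:**
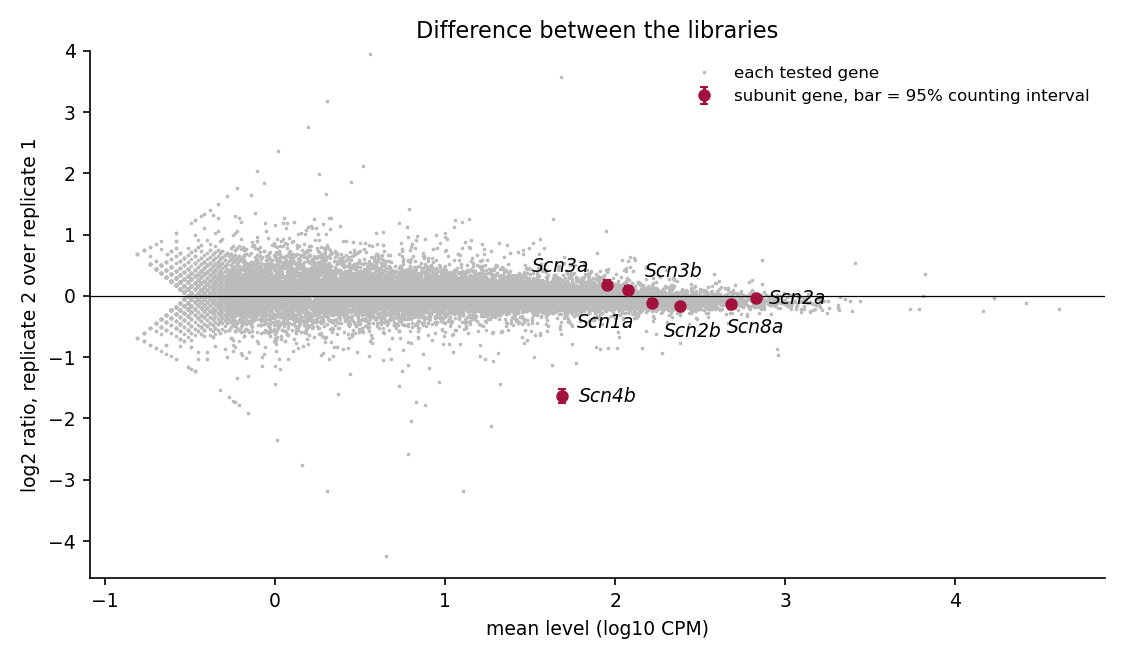
Log2 ratio of replicate 2 over replicate 1 against the mean level (log10 CPM) of all 18887 tested genes (grey), with the 7 subunit genes in red and bars for their 95% counting intervals. Scn4b lies at -1.63, and the other subunit genes between -0.16 and 0.18.

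Some marker lists of other tissue or cell types differed between the libraries as well, all of them chosen with earlier results of these data known. All 9 markers of striatal projection neurons were called lower in replicate 2, against 11.4% of all tested genes, and 4 of the 9 were called with edgeR and the assumed dispersion. They had a median log2 ratio of -0.61, a range of -1.18 to -0.33, and a summed level of 351 TPM in replicate 1 and 223 TPM in replicate 2, none of them at 0. Within this list the nearest in size to Scn4b were Drd2 (-1.18 ± 0.14), a dopamine receptor gene, and Adora2a (-0.99 ± 0.09), an adenosine receptor gene. The smallest differences in the list were those of Drd1 (-0.33 ± 0.08) and Gpr6 (-0.47 ± 0.14). All 8 markers of myelinating oligodendrocytes were called lower as well, 8 of them also with edgeR and the assumed dispersion, with a median of -0.95 and a summed level of 1394 and 769 TPM. The nearest in size to Scn4b among these were Mal (-1.10 ± 0.05) and Opalin (-1.03 ± 0.18), and the smallest difference was that of Cnp (-0.76 ± 0.02). In the direction opposite to Scn4b, all 5 markers of the choroid plexus were called higher, against 8.88% of all tested genes, and 3 of the 5 with edgeR, with a median of 1.03. Their summed level was 11.3 and 137 TPM, of which Ttr alone held 9.86 and 131 TPM, and the other 4 were below 1 TPM in at least 1 library. The 5 thalamus markers had 1 called higher and 1 lower with a median of -0.12. Of the 5 hippocampus markers 1 was called higher and none lower, with a median of 0.02. Over all tested genes 8.88% were called higher and 11.4% lower. No thalamus or hippocampus marker was called with edgeR and the assumed dispersion. The ratio of Scn4b was outside the range of each of these lists. The part of these tissues in the difference of Scn4b was not tested, and in bulk RNA fewer cells of a type and less RNA per cell cannot be told apart.

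Markers of cortical neurons moved less. Of the 6 parvalbumin interneuron genes 4 were called lower, against 11.4% of all tested genes, with a median of -0.12. They were Pvalb (-0.36 ± 0.11), the synaptotagmin gene Syt2 (-0.34 ± 0.06) and the potassium channel genes Kcnc1 (-0.10) and Kcnc2 (-0.14). Tac1 and Erbb4 were not called. Of the excitatory neuron markers 4 of 5 were called lower, against 11.4% of all tested genes, with a median of -0.14. With edgeR and the assumed dispersion 0 of the parvalbumin and 0 of the excitatory markers were called. None of the 6 general inhibitory neuron markers was called in the exact binomial test (0 at an unadjusted p under 0.05, and 0 with edgeR and the assumed dispersion), with ratios between -0.06 and 0.04. The median ratio over the 7 subunit genes was -0.11, and over all tested genes 0.001.

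**Figure D5:**
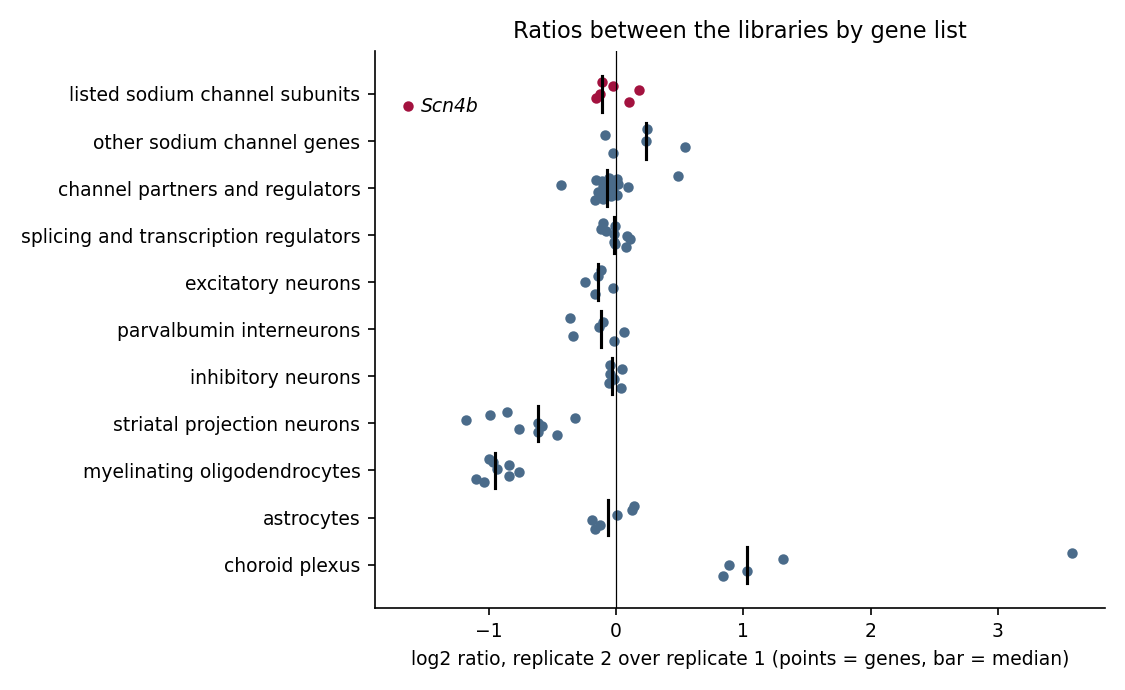
Log2 ratio of replicate 2 over replicate 1 for each tested gene by list, with the median of a list as a bar. Scn4b stands at -1.63, left of the striatal and myelin markers, and the other 6 subunit genes lie near 0 with the partner genes and the cortical neuron markers.

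Of the 6 other sodium channel genes listed, 2 reached 1 TPM in both libraries. Nalcn, a sodium leak channel that is not voltage-gated in the usual sense, was at 32.8 and 34.3 TPM, and Scn9a (Nav1.7), known from sensory neurons, at 1.85 and 1.75 TPM. Scn7a was at 0.36 and 0.46 TPM, Scn10a and Scn11a at or below 0.19 TPM, and Scn4a (Nav1.4), the channel of skeletal muscle, at 0.02 and 0.03 TPM with too few counts to be tested. None of the 5 tested was called in the exact binomial test (1 at an unadjusted p under 0.05, and 0 with edgeR and the assumed dispersion), and their median log2 ratio was 0.24.

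Genes that anchor or modulate the channels were all detected. Of the 20 partners, 2 were called higher and 11 lower, against 8.88% and 11.4% of all tested genes, with a median of -0.07. None of the 20 was called with edgeR and the assumed dispersion. Ankyrin-G (Ank3), which holds the channels at the axon initial segment, was at 251 and 256 TPM, and the calmodulin genes, whose product binds the channel tail, were the most abundant in the gene tables, led by Calm2 at 1191 and 1127 TPM. The intracellular FGF genes Fgf12 (145 and 134 TPM) and Fgf13 (100 and 103 TPM) were well above Fgf14 (23.9 and 22.5 TPM) and Fgf11 (6.52 and 9.63 TPM). The largest differences were Nfasc, a cell adhesion gene of the initial segment and node that oligodendrocytes also express (-0.43 ± 0.02, adjusted p = 3.66e-147), and Fgf11 (0.49 ± 0.09, adjusted p = 1.66e-06).

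Of the 10 regulators of neuronal splicing and transcription, which act on many neuronal genes, 2 were called lower and 1 higher. Over all tested genes the shares were 11.4% and 8.88%, and the median ratio of the 10 was -0.01. Rbfox1 (-0.10, adjusted p = 0.000286) and Rbfox3 (-0.12, adjusted p = 1.03e-05) were lower in the exact binomial test, and Ptbp2 (0.11, adjusted p = 0.0302) was higher. None of the 10 was called with edgeR and the assumed dispersion. Rbfox1 was at 153 and 149 TPM, Ptbp2 at 53.8 and 63.2 TPM, and Rest, a repressor of neuronal genes outside neurons, at 1.82 and 2.00 TPM. Their relation to the exon choices was not tested.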

How the data were processed

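Each library came with a gene table and a first transcript table, which the authors derived from reads aligned to the transcriptome, and with a second transcript table derived directly from reads. All use mm10 and GENCODE M21, per notes the authors deposited beside the tables. Sources used here do not name the tools. Expected counts, per the file headers, are estimated reads and are not normalised. The deposited TPM values, with posterior means and interval bounds, are scaled over all rows, spike-ins included.

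Expected counts were rounded, and genes that reached 10 counts in either library were tested with an exact binomial test, with library scaling by TMM of edgeR 4.0.16 (R 4.3.3). DESeq2 1.42.0 gave an alternative scaling. Log2 ratios between libraries added 0.5 CPM and ratios between genes added 0.1 TPM. On data simulated with counting error alone over 18887 genes, 80% of genes changed 2-fold were called, and 8 of 18687 unchanged ones. Transcripts with 5% or more of their gene in a library were considered for naming. Exon pairs and splice sites were found from the annotation, and sequences came from mm10. The subunit genes and all lists were chosen with earlier results of these data known. Named were all subunit genes. Of other lists, genes called or of highest or lowest level were meant to be named. Not every called gene was, and some genes not called were named too. Some genes and sequences are not reported here.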

Additional observations from a re-analysis of the deposited data

How the results depend on the processing

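Other settings moved the relations between genes more than their direction. With an edgeR dispersion of 0.01 in place of counting error, the count of genes called fell from 3830 to 182 and that of subunit genes from 6 to 1. The second transcript tables gave log2 ratios of 2.13 for Scn2a over Scn1a (main 2.02), 1.42 for Scn8a over Scn1a (main 1.30) and 0.77 for Scn3b over Scn1a (main 0.53). With a pseudocount of 1 TPM Scn8a over Scn1a was 1.28. Expected counts, which do not correct for length, gave 1.53 for Scn8a over Scn1a, 0.51 for Scn2a over Scn8a, 1.03 for Scn2b over Scn3b, 0.98 for Scn8a over Scn2b, 1.79 for the alpha over the beta sum and -0.48 for Scn3b over Scn1a, whose direction turned. Scn3a over Scn4b had a mean of 0.50 and was -0.49 without replicate 2 and 1.48 without replicate 1. The upstream exon copy of Scn2a had 61.5% in the second tables and 80.5% by counts (main 63.9%), that of Scn3a 0% and 0.39% (main 10.8%), and that of Scn8a 6.70% by counts (main 24.3%). No paired analysis was possible because the libraries belong to 1 group. Depth was no limit for the subunit genes, which had 769 counts or more, but short transcripts such as Scn3a-203 rest on few counts. The counting errors cover neither library preparation nor mice.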

Other observations

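Transcripts annotated as retained introns held a larger share of their gene in replicate 2 for all 4 subunit genes that have them, in both kinds of transcript table. In the first tables the share was 2.61% in replicate 1 and 5.07% in replicate 2 for Scn1a, 4.46% and 5.65% for Scn2a, 5.24% and 8.80% for Scn8a and 3.96% and 5.47% for Scn3b. The second tables gave 3.58% and 6.72% for Scn1a, 5.96% and 8.09% for Scn2a, 5.27% and 8.57% for Scn8a and 4.27% and 5.54% for Scn3b. The same direction was found for 69.6% of the 7364 detected coding genes with such transcripts in the first tables and for 67.8% of 7211 in the second, with medians of 8.29% and 10.2% in the first. The pattern was looked for after the shares had been seen, and no test was made of it.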
